A study of Mus musculus with 20 samples.

Results

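The 8 genes described here are the hindbrain patterning factors *Egr2*, *Gbx2*, *En1*, *En2*, *Otx2*, *Fgf8*, *Atoh1* and *Ptf1a*, chosen by name out of 22089 protein-coding genes with a single position in the annotation. Each gene was read as a window, its gene body with 10 kb on either side, in NCBIM37 (mm9) coordinates. The 8 windows were between 21839 and 29966 bp long and held 206850 bp in all. The study mapped 5-formylcytosine (5fC) in E11.5 mouse embryos by a pull-down in which a biotinylated probe reacts with the aldehyde of 5fC, followed by sequencing and peak calling in each library. Hindbrain came from 4 wild-type (WT) and 4 *Tdg* null embryos, 1 of each genotype from each of litters A, O, Q and Z, the order in which the 4 hindbrain values are given below. Heart, liver and carcass, the remainder of the embryo, came from 2 WT and 2 *Tdg* null embryos, set in pairs a and b by the labels, so that these 3 tissues of an embryo are not independent. The *Tdg* null embryos are homozygous knockouts from crosses of heterozygotes, with the sequence that codes for the catalytic domain of TDG deleted. Each dissected tissue was taken whole, so the cell types in it cannot be separated. Of the 20 libraries 19 entered the comparisons, and the *Tdg* null liver of pair b, which the study set aside for quality, had 228 peaks and none in any of the 8 windows.

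5fC is made from 5-methylcytosine by the TET enzymes and is removed by the glycosylase TDG, which excises it so that an unmodified cytosine can be put back. The genes themselves belong to the circuit that divides the early brain. Otx2, a homeodomain factor of forebrain and midbrain, and Gbx2, a homeodomain factor of the anterior hindbrain, meet at the midbrain-hindbrain boundary, where the isthmic organiser secretes the growth factor Fgf8. En1 and En2 are engrailed homeodomain factors expressed on both sides of that boundary. Egr2, also called Krox20, is a zinc finger factor of alternating rhombomeres, the segments of the hindbrain. Atoh1 and Ptf1a are bHLH factors of dorsal hindbrain progenitors, which give rise to glutamatergic neurons in the case of Atoh1 and to GABAergic neurons in the case of Ptf1a.

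The deposited files give the start and end of each peak without a height, so the value used is the percentage of a window covered by peaks. Read depth is unknown from these positions. Peaks covered between 2.68% and 3.67% of the ungapped genome in *Tdg* null hindbrain and between 0.0349% and 0.469% in WT hindbrain. They covered 8.09% and 3.64% in the *Tdg* null hearts, 5.39% and 7.55% in the *Tdg* null carcasses and 3.03% in the *Tdg* null liver that was kept. Windows of 10 heart genes had a median coverage of 26.0% in *Tdg* null heart against 3.26% in *Tdg* null hindbrain, and 9 neural genes had 7.57% in hindbrain, 3.75% in heart, 8.19% in carcass and 0% in liver. Windows of 8 liver genes did not stand out in liver, at 3.81% against 7.62% in heart.

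Stretches under peaks of all 4 *Tdg* null hindbrain libraries are the sites that recurred in every litter. There were 4, with 2 in the *Egr2* window and 1 each in those of *Gbx2* and *En2*, and none in the other 5. A peak anywhere in the window in each of the 4 *Tdg* null hindbrains was found in 65.0% of all coding windows. It was found in 53.8% of those of like length, against 37.5% of the 8. These shares do not require a shared position, and the share of coding windows with such a stretch was not computed. Of the stretches in the *Egr2* window, 1 lay wholly in the UTR of the neighbouring gene *Ado* and the other, 14.1 kb from the 5′ end of *Egr2*, lay beyond *Ado*. Up to 300 bases around the middle of 1 stretch per gene, outside UTRs, are printed 5′ to 3′ on the strand of the gene, from NCBIM37, with each CpG in capitals because 5fC in mammals derives mainly from methylated CpG. The *Egr2* sequence is chr10:67012401-67012700 on the plus strand, the *Gbx2* sequence is chr1:91822301-91822600 on the minus strand and the *En2* sequence is chr5:28506651-28506950 on the plus strand. All 3 are intergenic in the annotation, downstream of the gene that names the window.
Egr2: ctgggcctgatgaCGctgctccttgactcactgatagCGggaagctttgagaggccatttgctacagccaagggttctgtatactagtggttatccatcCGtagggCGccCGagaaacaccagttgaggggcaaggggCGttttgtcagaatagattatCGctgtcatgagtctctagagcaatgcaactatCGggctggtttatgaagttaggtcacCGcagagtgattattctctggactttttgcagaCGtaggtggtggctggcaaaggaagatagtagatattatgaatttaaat
Gbx2: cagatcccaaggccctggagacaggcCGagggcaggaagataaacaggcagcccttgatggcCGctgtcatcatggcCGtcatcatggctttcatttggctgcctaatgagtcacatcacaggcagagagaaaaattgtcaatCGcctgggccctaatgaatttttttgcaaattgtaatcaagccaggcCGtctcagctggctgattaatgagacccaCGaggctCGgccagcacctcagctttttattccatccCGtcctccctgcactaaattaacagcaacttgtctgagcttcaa
En2: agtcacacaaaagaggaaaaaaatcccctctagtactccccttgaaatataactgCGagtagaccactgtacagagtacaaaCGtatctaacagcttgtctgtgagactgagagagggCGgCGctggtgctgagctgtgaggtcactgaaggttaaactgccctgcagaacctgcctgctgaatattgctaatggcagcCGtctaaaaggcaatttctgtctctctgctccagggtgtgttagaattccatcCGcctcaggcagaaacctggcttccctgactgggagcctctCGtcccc

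These sequences held 10, 8 and 7 CpGs, and no WT library had a peak over any of the 3.

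The 8 windows held 70 peaks over the 19 libraries, 69 in *Tdg* null and 1 in WT. *Tdg* null hindbrain had 30 of them, at 10, 6, 7 and 7 peaks per library, and WT hindbrain had 0 in each of its 4 libraries. Of all coding windows 30.2% had a peak in at least 1 WT hindbrain library, and of the 5665 coding windows as long as those of the 8 genes 15.3% did. Taken as 1 stretch of DNA, the 8 windows were covered to 3.77%, 1.45%, 2.32% and 1.87% in the *Tdg* null hindbrains, which was 1.05, 0.542, 0.659 and 0.509 times the coverage of the genome in the same library. In the *Tdg* null tissues of the other embryos the ratio was 0.5496 and 0.226 in heart, 0.611 and 0.481 in carcass and 0.239 in liver. Coverage of the 8 windows was thus below that of the genome in each *Tdg* null library except the hindbrain of litter A.

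**Figure D1:**
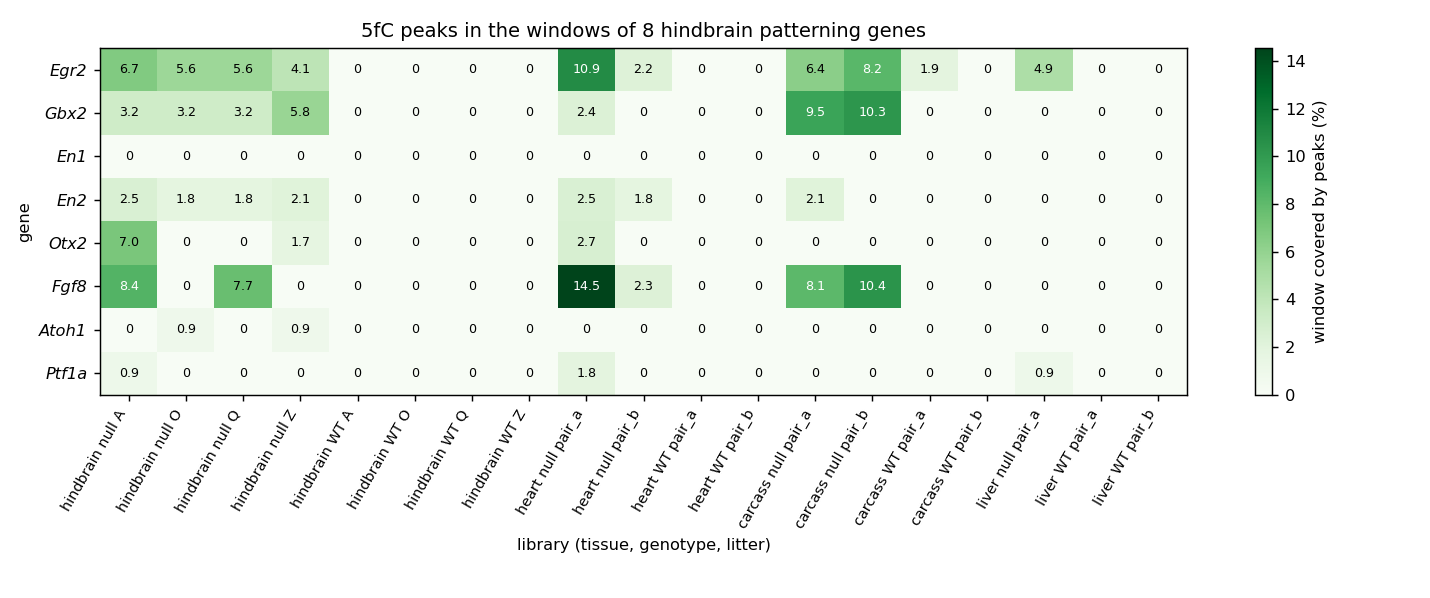
Percentage of each gene's window covered by 5fC peaks (colour and printed value) in the 19 libraries, named by tissue, genotype and litter or pair; rows are the 8 genes. WT columns are at 0 except for *Egr2* in the WT carcass of pair a, and the *En1* row is at 0 throughout.

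The windows of *Egr2*, the rhombomere factor, and *Gbx2*, the anterior hindbrain factor, carried peaks in every *Tdg* null hindbrain. None of these peaks lay in the gene body, and only *Otx2* and *Fgf8* of the 8 genes had peaks there. Here and below, coordinates are those of the gene and percentages those of its window. *Egr2* (chr10:66998223-67004936, plus strand) was covered to 6.74%, 5.62%, 5.62% and 4.12%, with a mean of 5.52% ± 1.08 (SD, n = 4). That mean was above those of 73.7% of coding windows. *Gbx2* (chr1:91824537-91829865, minus strand) was covered to 3.16% in litters A, O and Q and to 5.78% in litter Z, a mean of 3.81% ± 1.31 (SD, n = 4). The higher value of litter Z came from a second peak of 800 bp, 14.6 kb from the 5′ end, that no other library had. All 4 values of either gene lay above the 0% of every WT hindbrain.

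Among the engrailed genes the paralogues differed. *En2* (chr5:28492236-28500152, plus strand) was covered to 2.51%, 1.79%, 1.79% and 2.15% in the *Tdg* null hindbrains, with a mean of 2.06% ± 0.343 (SD, n = 4), from a single peak of 500 to 700 bp in each. *En1* (chr1:122498995-122505873, plus strand) had no peak within its 26879 bp window in any of the 20 libraries. No peak in any of the 19 libraries was also the state of 2261 coding windows, 10.2%, and of 12.6% of those of like length. The *En1* window was 16.9% CpG island, and among windows of like length with over 10% in islands 5.41% had no peak, against 22.0% of those without an island. The nearest peak to the 5′ end of *En1* lay 40.6, 44.7, 40.7 and 19.01 kb away in the 4 *Tdg* null hindbrains. The mean of these, 36.3 kb ± 11.7 (SD, n = 4), was exceeded by 16.9% of coding genes, and the median over coding genes was 6.92 kb. Against WT hindbrain, *En2* lay above 0 in all 4 litters.

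*Otx2* and *Fgf8*, the midbrain factor and the organiser signal, varied between litters. *Otx2* (chr14:49277354-49287319, minus strand) was covered to 7.01% in litter A, 0% in O and Q and 1.67% in Z (2.17% ± 3.32, SD, n = 4). *Fgf8* (chr19:45811288-45817405, minus strand) was covered to 8.42% and 7.66% in litters A and Q and to 0% in O and Z (4.02% ± 4.65, SD, n = 4). The litters with and without a peak thus were not the same for these genes, and both overlapped the WT values of 0%. Litter O, where both were at 0%, had the lowest coverage of the genome of the 4, and litter Z the highest. Whether the difference between litters is one of embryos or of libraries cannot be told apart with 1 embryo per litter and genotype.

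The bHLH genes of dorsal progenitors were nearly free of peaks. *Atoh1* (chr6:64679140-64681227, plus strand) had a single 200 bp peak, at the same position in litters O and Z (0.905% each) and none in A and Q. *Ptf1a* (chr2:19367290-19369128, plus strand) had a 200 bp peak in litter A (0.916%) and none in the other litters. Means were 0.453% ± 0.523 and 0.229% ± 0.458 (SD, n = 4), above those of 23.0% and 19.4% of coding windows.

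The genotype comparison asks whether loss of *Tdg* changes how much of a window lies under peaks. It was tested in hindbrain by limma on log2(percent covered + 1) over all 18466 coding windows with a peak in at least 1 of these 8 libraries. Of all windows tested, 85.4% were higher in *Tdg* null, and 8 windows were lower. Of the 8 genes, 3 were higher: *Egr2* by 2.69 ± 0.140 (log2, SE, adjusted p = 3.96e-07), *Gbx2* by 2.23 ± 0.176 (adjusted p = 3.90e-06) and *En2* by 1.61 ± 0.117 (adjusted p = 2.40e-06). *Fgf8* differed by 1.59 ± 0.785 (adjusted p = 0.0888), *Atoh1* by 0.47 ± 0.251 (adjusted p = 0.111), *Otx2* by 1.10 ± 0.616 (adjusted p = 0.121) and *Ptf1a* by 0.23 ± 0.226 (adjusted p = 0.341), and *En1* could not be tested. The 3 of 7 tested were thus a smaller share than the background. The median log2 difference of the 7 was 1.59 against 2.00 over all windows. The same 3 genes had every *Tdg* null library above every WT library, which held for 63.3% of all coding windows and 51.9% of those of like length. With WT at 0 throughout, these differences are between a covered and an uncovered window, and their size depends on the value of 1% added before the log. *Fgf8* passed without the *Tdg* null hindbrain of litter O (2.12, adjusted p = 0.0392) or Z (2.12, adjusted p = 0.0387), *Atoh1* passed without that of A (0.62, adjusted p = 0.0456) or Q (0.62, adjusted p = 0.0459), and *Otx2*, *Fgf8* and *Ptf1a* passed with flanks of 20 kb. *En2* no longer passed when peaks shorter than 600 bp were left out (0.87, adjusted p = 0.116).

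Set against the coverage of the genome in each library, the genotype difference took another form. Of all windows 31.2% were then higher and 24.1% lower in *Tdg* null hindbrain. *Egr2* stayed higher (0.79 ± 0.199, adjusted p = 0.00628), *Gbx2* (0.34, adjusted p = 0.181) and *En2* (-0.29, adjusted p = 0.207) no longer passed, and *Atoh1* (-1.43, adjusted p = 0.00265) and *Ptf1a* (-1.66, adjusted p = 0.000431) were lower. On this scale a window with no peak in either genotype is lower in *Tdg* null by construction, because the genome of those libraries is covered more.

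In heart, liver and carcass the WT windows held a single peak among them. Of all coding windows 39.8% and 35.7% had a peak in the WT carcasses of pairs a and b, 12.1% in either WT heart and 30.9% and 5.24% in the WT livers. It lay in the *Egr2* window in the WT carcass of pair a (1.87%), 500 bp long, and was absent from the WT carcass of pair b. Those carcasses had the highest coverage of the genome of the WT libraries, 0.939% and 0.802%. That peak overlapped the region of chr10:67009501-67010700 that also held a peak in all 4 *Tdg* null hindbrains, in a *Tdg* null heart and a *Tdg* null carcass of the other embryos. The region lies in the UTR of *Ado*, the gene downstream of *Egr2*. With 2 libraries per genotype in heart and carcass, and 1 *Tdg* null liver, no test between genotypes was made there.

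Across the *Tdg* null tissues *Egr2* was the gene whose window had peaks in all 9 libraries. It was covered to 10.9% and 2.25% in the hearts of pairs a and b, 6.36% and 8.24% in the carcasses and 4.87% in the liver. *Gbx2* had 9.48% and 10.3% in carcass, 2.37% and 0% in heart and 0% in liver, so its highest coverage was in carcass. *En2* had 2.51% and 1.79% in heart, the range of its hindbrain values, 2.15% and 0% in carcass and 0% in liver. *Fgf8* had 14.5% and 2.30% in heart and 8.09% and 10.4% in carcass, with 0% in liver. *Otx2* had 2.67% in the heart of pair a and 0% in the other 4 libraries. *Ptf1a* had 1.83% in that same heart and 0.916% in liver, and *Atoh1* had peaks in hindbrain alone among these libraries, in 2 of 4. The heart of pair a, whose peaks covered 8.09% of the genome against 3.64% in pair b, had the higher value in each gene with a peak in heart.

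Tissues were compared by limma over the 9 *Tdg* null libraries and 19473 coding windows, with the embryo as a random block. The log2 scale was the same, relative to the coverage of each library's genome. The hindbrains came from other embryos and litters than heart, carcass and liver. Tissue therefore cannot be told apart from embryo or litter in these comparisons, and the block does not change that. Against heart, 12.7% of all windows were higher in hindbrain and 19.5% lower. *Gbx2* was the gene of the 8 that passed, higher in hindbrain by 1.94 ± 0.323 (log2, SE, adjusted p = 0.00374), with all 4 hindbrains above both hearts. That is 1 of 7 tested, 14.3%, near the share of all windows. The order of libraries was not counted over all windows. Its closest values were 3.16% in hindbrain and 2.37% in the heart of pair a. Against liver, 12.8% of windows were higher, and *Gbx2* again was higher by 2.17 ± 0.416 (adjusted p = 0.00962), with the single liver assumed to vary like the other tissues. *Gbx2* no longer passed against liver with flanks of 20 kb (0.91), for peaks per 10 kb (0.50) or with the liver set aside included (1.12). Against carcass, 7.69% of windows were higher, none of the 8 genes passed, and 4 of the 7 tested had an unadjusted p under 0.05, as did 34.8% of all windows. Those 4 were *En2*, *Ptf1a*, *Atoh1* and *Otx2* (adjusted p between 0.0878 and 0.120). Both carcasses were at 0% for the last 3, and because their genome was covered more, a window with no peak in either tissue comes out higher in hindbrain on this scale by construction. With no adjustment for the library *Ptf1a* differed from carcass by 0.23 (adjusted p = 0.781), *Atoh1* by 0.47 (adjusted p = 0.395), *En2* by 0.78 (adjusted p = 0.356) and *Otx2* by 1.10 (adjusted p = 0.460). *Gbx2* differed from carcass by -0.44 ± 0.323 (adjusted p = 0.362). With no adjustment for the library, *Gbx2* differed from heart by 1.36 (adjusted p = 0.0811) and from liver by 1.86 (adjusted p = 0.126), no gene of the 8 passed, and the median over all windows moved from -0.13 to -0.71 against heart and from 0.33 to -0.44 against carcass. Without the heart of pair a, a single heart was left, and *Egr2* differed from it by 1.08, against 0.64 with both hearts. Without the carcass of pair a, a single carcass was left, with *En2* at 0%. There *En2* differed from carcass by 2.61, against 1.55 with both carcasses. The 3 comparisons share the hindbrain libraries.

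**Figure D2:**
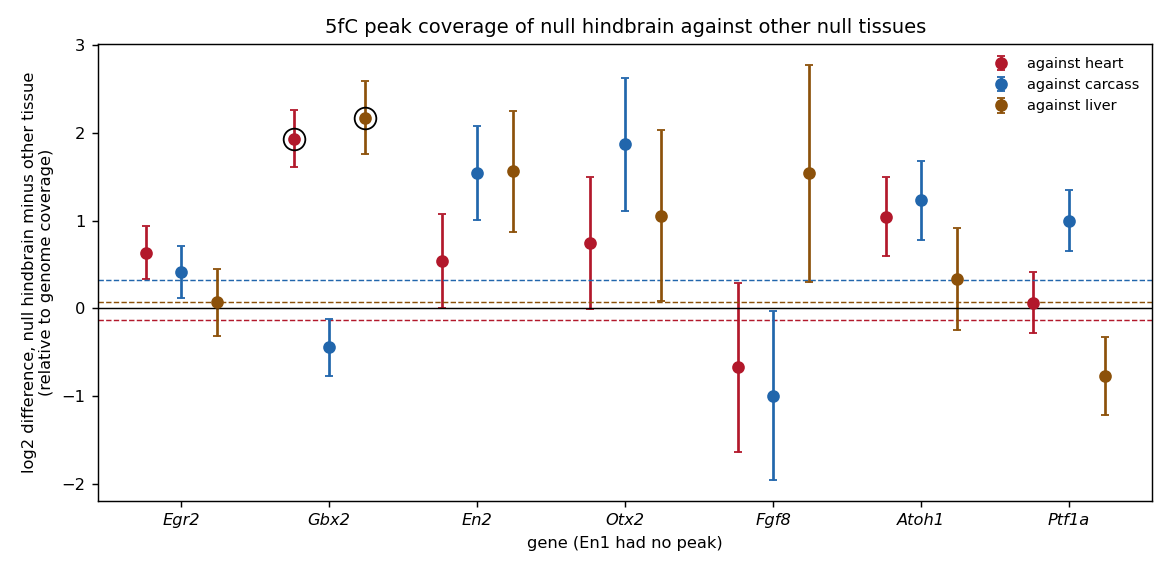
Difference in 5fC peak coverage between *Tdg* null hindbrain and each other *Tdg* null tissue (log2 scale, relative to genome coverage), with the SE of the fit, for the 7 genes with a peak. Circles mark adjusted p under 0.05 and dashed lines the median over all coding windows: *Gbx2* is circled against heart and liver and lies below 0 against carcass.

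Where the peaks lay was alike in a few respects across the genes. Merged over libraries they formed 26 regions of 200 to 1900 bp, 9 of them around *Egr2* and 8 around *Fgf8*. Of these, 15 were downstream of the gene, 8 upstream and 3 overlapped a gene body. None covered a 5′ end, and the nearest began 2.21 kb away, inside *Fgf8*. CpG islands filled between 7.52% and 22.5% of the windows other than that of *Atoh1*, which had none by the limits used (at least 500 bp, 55% GC and an observed over expected CpG ratio above 0.65). In 5 genes an island covered the 5′ end. Islands filled 11.7% of the bases of the 8 windows. Of the 26 regions 3 touched an island and 3 more came within 2 kb of one. Of the 70 peaks, 13, or 18.6%, touched an island by any number of bases, so this share cannot be set against the share of bases. The region chr10:67012201-67012900 near *Egr2*, with a peak in 9 libraries, was counted once for each. The median region had 1.91 CpGs per 100 bp and a GC content of 47.9%.

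**Figure D3:**
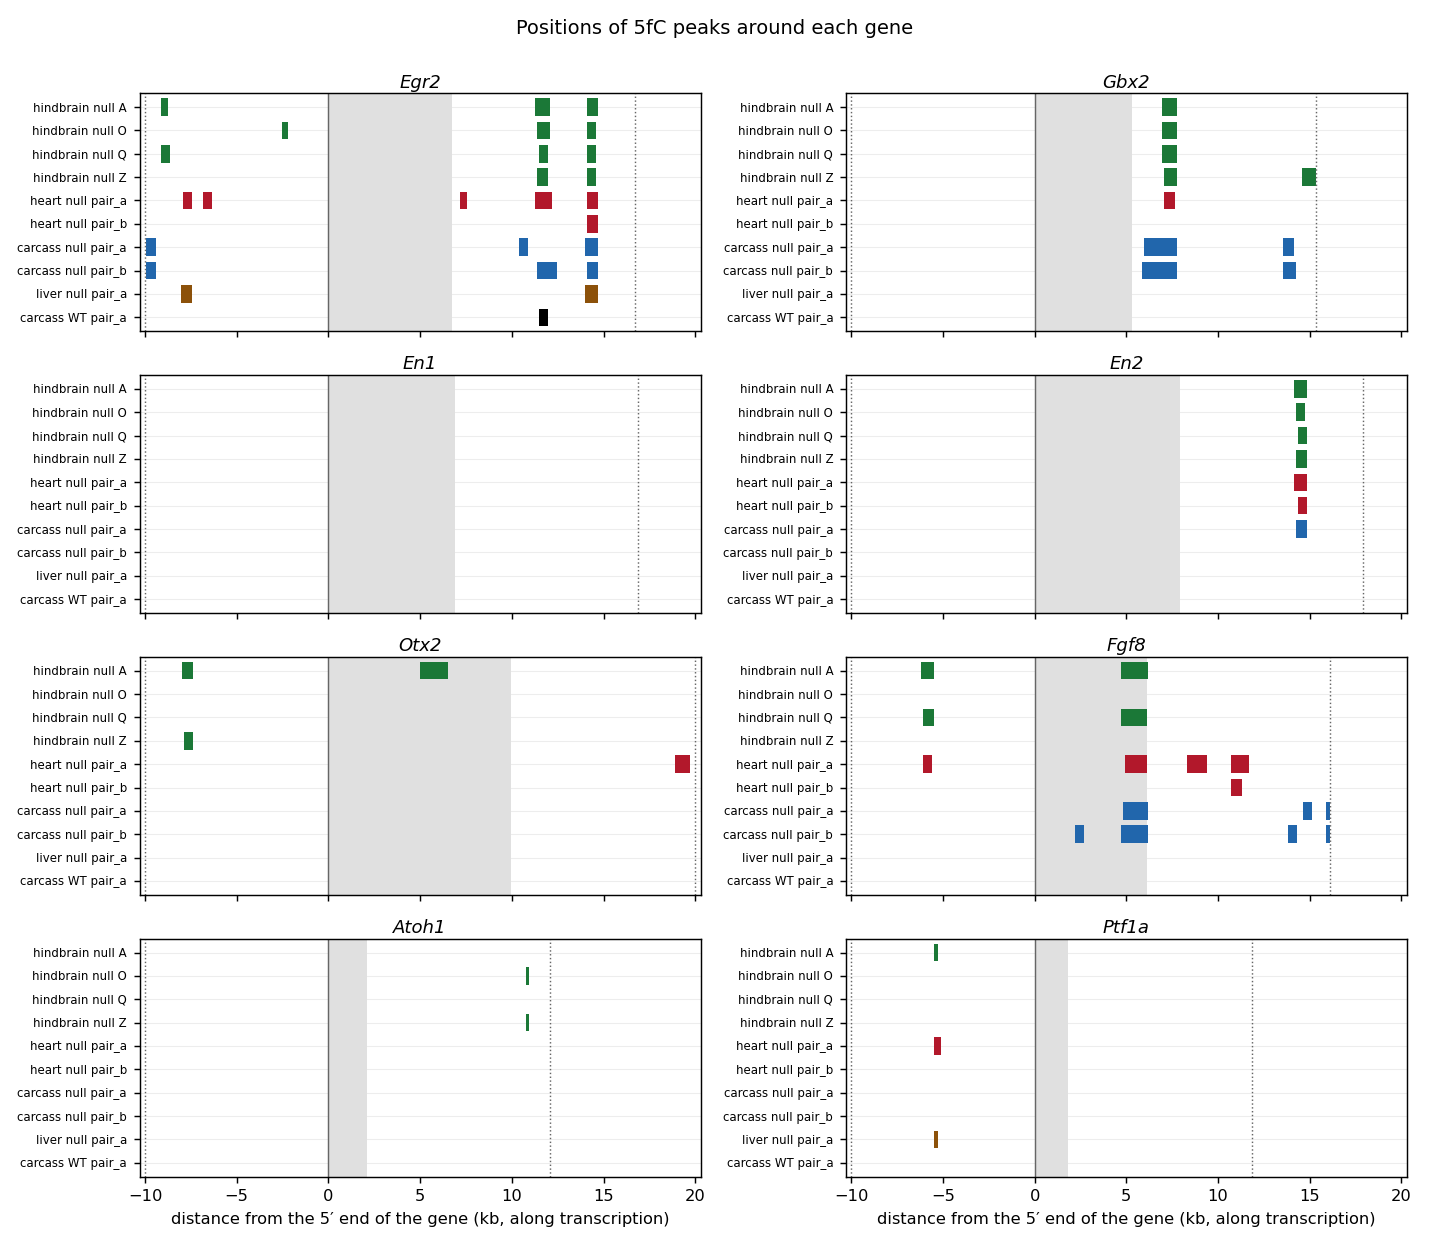
Peaks (bars) in the window of each gene by distance from its 5′ end in kb, for the 9 *Tdg* null libraries and the WT carcass of pair a. Grey marks the gene body and dotted lines the window ends. Peaks of *Gbx2*, *En2* and *Egr2* line up across hindbrain libraries downstream of the genes, and *Fgf8* and *Otx2* have peaks within theirs.

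The regions shared by all 4 *Tdg* null hindbrains were 4. Near *Egr2*, chr10:67012201-67012900, 14.0 kb from the 5′ end and the source of the *Egr2* sequence above, had a peak in all 9 *Tdg* null libraries, and 397 bp of it lay in an island. The *Gbx2* region, chr1:91822101-91824000, lay 5.87 kb from the 5′ end beyond the end of the gene and held peaks in all 4 hindbrains, both carcasses and 1 heart. Its hindbrain peaks of 700 to 800 bp covered 1 side of it, and in both carcasses a further adjoining peak of 1000 or 1100 bp extended towards the gene. The *En2* region, chr5:28506401-28507100, 14.2 kb from the 5′ end, had peaks in all 4 hindbrains, both hearts and 1 carcass, and lay 12.4 kb from the nearest island. Within gene bodies, *Fgf8* had a region at its 3′ side, chr19:45811201-45812700, with peaks in the hindbrains of litters A and Q, 1 heart and both carcasses. A further *Fgf8* region, chr19:45822901-45823600, lay upstream inside *Npm3*, with 394 bp in an island and peaks in the hindbrains of litters A and Q and 1 heart. *Otx2* had chr14:49280801-49282300 in the hindbrain of litter A alone. Of the 26 regions 13 had a peak in hindbrain and 13 had peaks in other tissues alone. Of the 13 in hindbrain, 6 had none in another tissue, and each of these had a peak in 1 or 2 of the 4 *Tdg* null hindbrains, while all 4 regions shared by every *Tdg* null hindbrain also had peaks in other tissues.

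The windows were also set beside coding windows of the same length range with a like share of islands. In windows with over 10% in islands, which hold 5 of the genes, the median coverage in *Tdg* null hindbrain was 4.11%, with quartiles of 1.68% and 7.04%. *Egr2*, *Gbx2*, *Fgf8* and *En2* lay within those quartiles and *En1* below. In windows with 7.5% to 10%, the median was 4.09%, with *Otx2* at 2.17% inside the quartiles of 2.05% and 6.88% and *Ptf1a* below. *Atoh1*, among windows without an island, lay under their median of 1.39%.

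**Figure D4:**
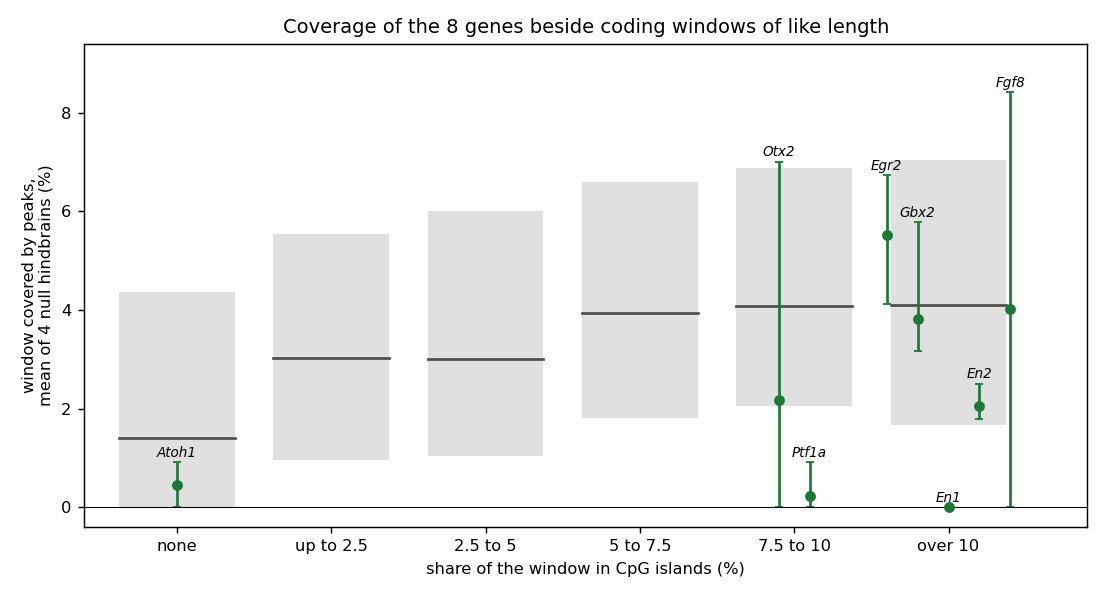
Mean percentage of the window covered in the 4 *Tdg* null hindbrains (points, with bars from the lowest to the highest library) by the share of the window in CpG islands. Grey boxes are quartiles and lines medians of coding windows between 21839 and 29966 bp long. *En1* and *Ptf1a* lie below the boxes of their bins.

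The wider circuit of hindbrain and isthmus patterning was taken as 42 other genes, among them the Fgf targets *Spry1*, *Spry2*, *Spry4*, *Etv4*, *Etv5* and *Dusp6*, the isthmic factors *Pax2*, *Pax5* and *Wnt1*, and factors of hindbrain segments and progenitors. Their median coverage in *Tdg* null hindbrain was 4.55%, against 2.11% for the 8 genes and 2.71% over all coding windows. In the genotype comparison 29 of the 39 tested were higher in *Tdg* null and none lower, a share of 74.4% against the 85.4% of all windows. Against heart 12 of 42 were higher in hindbrain and 2 lower, which is 28.6% and 4.76% against 12.7% and 19.5% of all windows. Against liver 10 were higher and 0 lower, 23.8% and 0% against 12.8% and 6.45% of all windows. Against carcass 1 was higher and 2 were lower, 2.38% and 4.76% against 7.69% and 1.65% of all windows. The 3 most covered were *Spry4* (15.6% ± 1.39), *Dusp6* (12.9% ± 5.36) and *Spry1* (12.7% ± 1.57, SD, n = 4 each), all of them feedback inhibitors of Fgf signalling. Their mean coverage was 28.9%, 27.6% and 17.8% in heart, 22.6%, 29.9% and 15.7% in carcass and 7.43%, 24.7% and 18.3% in liver. These percentages are not adjusted for the coverage of the genome, which averaged 3.37% in hindbrain, 5.87% in heart, 6.47% in carcass and 3.03% in liver. The least covered, at 0% in all 4 *Tdg* null hindbrains, were the homeodomain genes *Barhl2* and *Lhx1* and the bHLH gene *Olig3*, each of which had peaks in carcass.

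Over the 19 libraries, the coding genes outside the list whose coverage followed the mean of the 8 genes most closely were *Phb* (Pearson r = 0.995), *Clec18a* (r = 0.988) and *Rasgrp1* (r = 0.988), out of 19821 with a varying value. These coefficients describe libraries of which the 10 WT ones are at or near 0 for the 8 genes, and the points share tissues and genome coverage.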

How the data were processed

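5fC pull-down libraries were sequenced from 20 samples. Per the labels and the methods, the authors trimmed reads with Trim Galore, aligned them to NCBIM37 (mm9) with Bowtie2 and called peaks in each library with MACS within SeqMonk (p cutoff 1e-05, fragment size 200 bp). The deposited values are positions (start and end in bases, unit "other"), with no counts or scores, so coverage depends on depth, which is unknown, and a peak just missed leaves no trace. Positions were read as 1-based on a 100 bp grid.

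For each coding gene of the GENCODE annotation of NCBIM37 with 1 match, the percentage of gene body ± 10 kb under peaks was computed. limma 3.58.1 (R 4.3.3, lmFit and eBayes with trend) was run on log2(percent + 1) over windows with at least 1 peak, with Benjamini-Hochberg adjustment and a limit of 0.05. Tissues were compared relative to log2(genome percent + 1), with the embryo as random block (correlation 0.0951). Python 3.11.15, numpy 2.4.6, pandas 2.3.3 and matplotlib 3.10.9 were used, and the fits were run on simulated data. The simulated libraries of the genotype fit had equal coverage of the genome, unlike the real ones, so that run does not test the fit under the real difference.

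WT and *Tdg* null hindbrains are paired by the litter in the labels. Deviations from the group means of littermates (litters in the order A, O, Q, Z) correlated at 0.07, 0.01, -0.04 and -0.06. Embryos are separate animals.

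The 8 genes, the 42 companion genes and the marker lists were chosen with earlier results of these data known. All 8 genes are described, with the 3 most and 3 least covered companion genes, the 3 genes most alike in coverage and the stretches under all 4 *Tdg* null hindbrains. Alternatives varied the window, peak length, overlap, pseudocount, filter, gene set, scaling, block, test and each replicate.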

Additional observations from a re-analysis of the deposited data

Results flagged for a closer look

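2 values stood apart within the 4 *Tdg* null hindbrains, in that the gap to the nearest other library took up more of the range than Dixon's test allows for 4 samples. *Gbx2* was covered to 5.78% in litter Z against 3.16% in each of the other litters, through a second peak at the edge of its window. *Ptf1a* was covered to 0.916% in litter A and to 0% in the others, the value of a single peak of 200 bp. Where the other 3 libraries hold the same value any departure passes this test, and chance passes about 1 in 20 groups.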

How the results depend on the processing

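The numbers of the 8 genes that passed, 3 between genotypes in hindbrain and 1, 0 and 1 for *Tdg* null hindbrain against heart, carcass and liver, changed with the window and other settings. With the gene body alone, where *Otx2* and *Fgf8* had a peak to test, they were 0, 0, 0 and 0, and 77.1%, 9.69%, 3.22% and 9.82% of all windows were higher. With 20 kb flanks they were 6, 2, 2 and 1, beside 89.6%, 14.6%, 15.7% and 14.3% of all windows, where the gene against liver was *Fgf8* (2.63, adjusted p = 0.00319) and *Gbx2* no longer passed (0.91, adjusted p = 0.0773). The number of genes with every *Tdg* null above every WT hindbrain, 3, was 0 with the gene body alone, 5 with 20 kb flanks and 1 with peaks of at least 600 bp, settings under which 43.1%, 72.8% and 45.1% of all coding windows did the same. With no adjustment for the library the count against heart was 0 and against liver 0, where 2.82% and 5.07% of all windows were higher in hindbrain. It was also 0 and 0 with no embryo block besides, an alternative chosen after seeing the data (2.77% and 3.94% of all windows). Against liver it was 0 for peaks per 10 kb (2.62% of all windows) and 0 with the liver set aside included (4.27%), and against carcass it was 2 with a pseudocount of 5% (19.5%). Leaving out each hindbrain replicate gave 1 against heart and 0 against carcass, beside 9.24% to 11.7% and 3.27% to 5.70% of all windows. Without the heart or the carcass of pair a, which leaves a single library of that tissue, the counts moved. The embryo correlation of all 9 libraries was kept where it could not be estimated. With litter as a replicate block, the pairing the labels give, 3 genes passed, beside 84.9% of all windows that were higher. The block changed no call of the 8 genes. The exact permutation test also called 3, beside 75.8% of all windows that were higher. That test calls a window higher only where every *Tdg* null library lies above every WT library, so it repeats that count and is no separate check.

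Of 502 values of single genes under an alternative, 455 kept direction and side of the limit, 15 passed only there, 9 no longer passed and 23 changed direction. Relative to the genome, the genotype differences that changed direction were *En2* -0.29, *Otx2* -0.79, *Fgf8* -0.31, *Atoh1* -1.43 and *Ptf1a* -1.66, of which the last 2 passed, so that the count of 3 there was *Egr2*, still higher, with *Atoh1* and *Ptf1a*, both lower. Against heart, with or without the embryo block, no adjustment for the library gave *En2* -0.039 and *Ptf1a* -0.52. Also against heart, *Egr2* was -0.033 with peaks of at least 600 bp, *Fgf8* 0.69 with the gene body alone, and *Ptf1a* -0.61 with a pseudocount of 0.1%, -0.14 without hindbrain litter A and -0.18 without the heart of pair b, against 0.31 without the heart of pair a. Against carcass, *Egr2* was -0.35 with no adjustment, with or without the block, and *Gbx2* 0.22 with 20 kb flanks. Against liver, *Egr2* was -1.05 with peaks of at least 600 bp, -0.21 with no adjustment and -0.023 without hindbrain litter O, *Otx2* -0.0068 and *Atoh1* -0.65 with the liver set aside included, and *Ptf1a* 0.25 with 20 kb flanks. The cause of these changes was not tested. The lack of heights and depth limits all values: a peak is called or not, and 1 peak of 200 bp decides the value of *Atoh1* or *Ptf1a* in a library.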
